A study of Mus musculus with 120 samples.

Results

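Mice kept for 42 days in constant darkness (LD0/24, 0 h of light per day) were compared with mice kept in constant light (LD24/0, 24 h of light per day) by sequencing the bacteria of the colonic content. The comparison takes 6 LD0/24 and 6 LD24/0 libraries of chow-fed mice, chosen by the light cycle, site and diet in their labels, which makes 12 of the 120 samples of the series. The animals were C57BL/6N, an inbred laboratory strain, aged 10 weeks when they were obtained. All had 7 days of acclimatisation, were caged singly, and were given irradiated chow and sterilised water without antibiotics. Light came from LED strips at 150 to 200 lx. The design names 24 mice for each of these groups, and the labels do not say how the 6 sequenced samples of a group were taken from them. Reads of the 16S rRNA gene, a marker that differs between bacterial taxa, were counted per amplicon sequence variant, meaning per distinct sequence.

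The colon of a chow-fed mouse normally holds a dense anaerobic community. Muribaculaceae break down plant and host glycans, Lachnospiraceae and other Clostridia ferment fibre to short-chain fatty acids such as butyrate, and lactobacilli turn simple sugars into lactic acid. Desulfovibrio reduces sulfate to hydrogen sulfide, and Akkermansia lives on the mucin of the mucus layer. In mice on a regular light cycle, feeding and with it the supply of nutrients to these bacteria follow a daily rhythm, and constant darkness and constant light are common ways to remove the external time cue.

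The libraries held between 39157 and 69739 counts, and between 357 and 1161 variants each. The most abundant variant of each library belonged to Ligilactobacillus, Desulfovibrio, the Lachnospiraceae NK4A136 group or Akkermansia, all residents of the intestine, and the table holds no marker that would tell colonic from other intestinal content. The extraction protocol in the labels speaks of rumen digesta, while the sample field of every library gives colonic content. Values are shares of the reads of a library, so a rise of one taxon and a loss of others cannot be told apart. Without molecular identifiers on the reads, depth bears on counting error only.

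LD24/0 replicates 5 and 6 were far closer to each other than any other 2 libraries of a colon chow group. Their Bray-Curtis distance, which runs from 0 for the same composition to 1 for no shared variant, was 0.126, and the lowest among the 74 other pairs was 0.277. A chi-square test over the 50 variants counted in both libraries with at least 200 counts found no difference (0.933 per degree of freedom, p = 0.607). That minimum was the highest of 5 that were tried, and the choice matters. At minimums of 10, 20, 40 and 100 counts the statistic was 1.90, 2.12, 2.31 and 2.73 per degree of freedom, and the largest p among these was 4.71e-16. The lowest value of the 74 other pairs was 45.6 at the minimum of 10 and 188 at the minimum of 200. Over variants counted in either library, the pair gave 12.0 at the minimum of 10 and 26.6 at the minimum of 200. The lowest of the 74 other pairs gave 38.2 and 215 there. The agreement therefore covers the abundant variants shared by both libraries, and the pair did not agree over all of them. A total of 302 variants were counted in replicate 6 only, with 11.3% of its reads, and 79 in replicate 5 only, with 1.38% of its reads. Of 57 genera with at least 0.1% in either library, 18 were more than 10 times lower in replicate 5, and they summed to 6.47% of replicate 6 and 0.0332% of replicate 5. Parabacteroides was at 0.0332% and 0.995%, Klebsiella at 0 and 0.468%, and Lactiplantibacillus at 0 and 0.724% in replicates 5 and 6. The other 39 genera had a median ratio of 1.09.

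**Figure D1:**
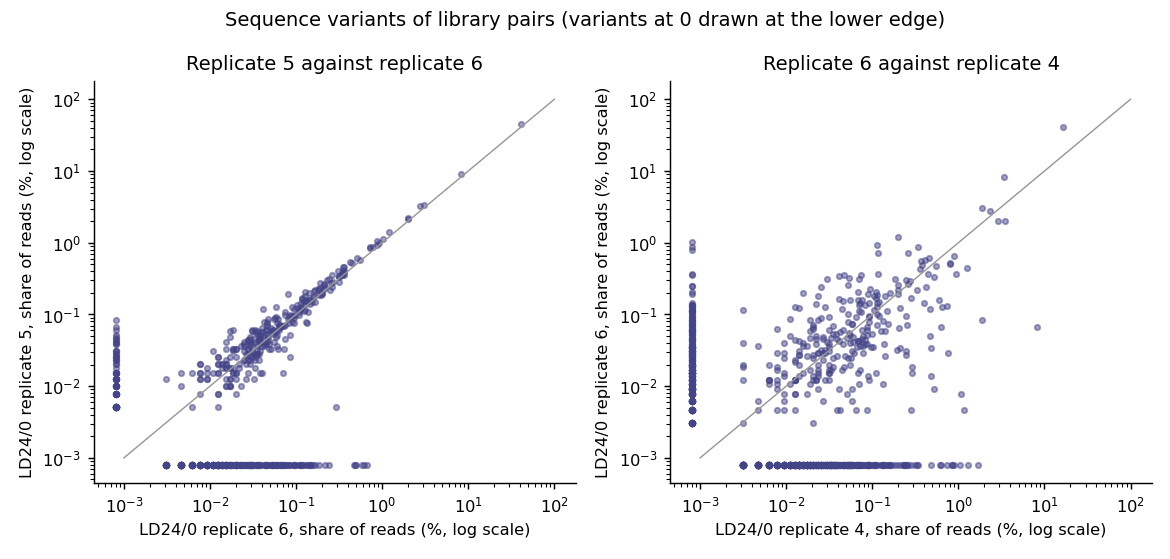
Share of reads (%, log scale) of each sequence variant in LD24/0 replicate 5 against replicate 6 (left) and in replicate 6 against replicate 4 (right). Points on the left lie along the line of equal shares, except for the variants counted in 1 library only, which sit at the edges, while points on the right scatter widely.

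Because of this, replicates 5 and 6 of LD24/0 were counted as 1 sample, with their shares averaged and their counts summed in the fits, and n is 6 for LD0/24 and 5 for LD24/0. The design had been 6 against 6, and the counts of calls with the pair as 2 samples are given beside the main ones. The labels do not tie samples to single animals, so p-values measure the spread between samples, which may be technical. In the main fits of genera, families and variants, that spread was estimated over the colon chow samples of all 5 light cycles. It is therefore not the spread of the LD0/24 and LD24/0 samples alone.

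The 12 libraries also differed in low-level variants that recurred across the groups of the series. A total of 71 variants of 19 genera known mostly from the mouth, airways, fermented food or plastids, each below 2% in every library, sorted 86 libraries of the series into 12 sets that the labels do not name. LD0/24 replicates 1 to 4 and LD24/0 replicates 3, 4 and 6 fell into one set. LD0/24 replicates 5 and 6 fell into a set with the 6 libraries of LD16/8 (16 h of light), and LD24/0 replicates 1 and 2 into a set with 4 libraries from mice on antibiotics. LD24/0 replicate 5 held 0 reads of these variants. In the other 11 libraries they took 2.31% to 3.66% of reads. The sets were drawn from the data, after other cut points had been looked at. Libraries entered with at least 1% of reads from these variants, and sets were split until none held more than 8 libraries. The number and size of the sets therefore follow in part from that limit.

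Ligilactobacillus, a genus of lactic acid bacteria, led the community of most mice and ranged about as widely inside each group as across both. It made up 10.7%, 70.0%, 42.3%, 3.18%, 49.7% and 39.8% of reads in LD0/24 replicates 1 to 6. In LD24/0 replicates 1 to 4 it made up 63.5%, 2.40%, 11.4% and 20.1%, and in the near-identical replicates 5 and 6 it made up 54.1% and 49.3%. Mice rich in the genus and mice with only a few percent of it occurred under both light cycles, and the groups overlapped over nearly the whole range. The means were 35.9% ± 25.0 (SD, n = 6) in LD0/24, against 29.8% ± 26.4 (SD, n = 5) in LD24/0. The log2 fold change, always LD24/0 minus LD0/24, was -0.28 with a standard error (SE) of 0.86 and an approximate 95% interval from -1.96 to 1.40. Differences of that size in either direction lie within the interval, so the data do not show that the level was alike.

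**Figure D2:**
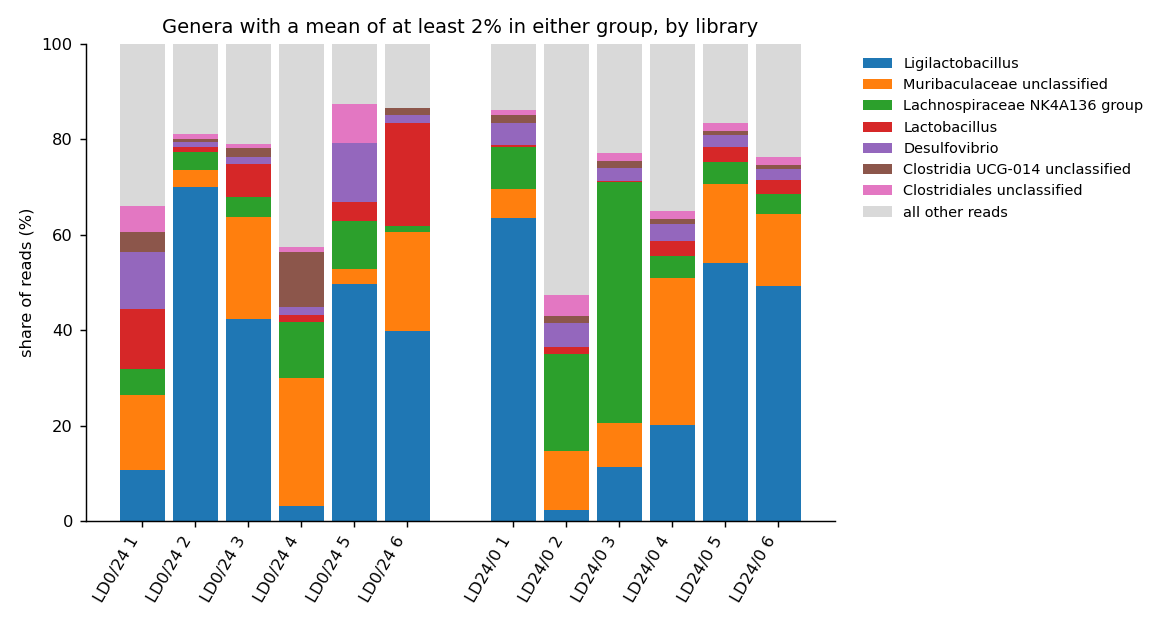
Share of reads (%) of the 7 genera with a mean of at least 2% in either group, as stacked bars for each of the 12 libraries, with all other reads in grey. Ligilactobacillus runs from 2.40% to 70.0%, and libraries rich or poor in it occur in both groups.

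Lactobacillus, the related genus with several host-adapted gut species, was the abundant genus with the smallest unadjusted p. Its shares in LD0/24 replicates 1 to 6 were 12.5%, 0.923%, 7.03%, 1.40%, 4.12% and 21.6%. In LD24/0 replicates 1 to 6 they were 0.508%, 1.56%, 0.257%, 3.08%, 3.33% and 2.88%. In 4 LD0/24 mice the genus stood above every LD24/0 value, and in the other 2 it lay within the LD24/0 range. The log2 fold change was -2.23 ± 0.93 (SE), with an unadjusted p of 0.0233 and an adjusted p of 0.133 in edgeR's quasi-likelihood test, so it did not pass the threshold of 0.05. DESeq2 gave an adjusted p of 0.027. Within the set of libraries that both groups share, the log2 fold change was -1.40 ± 1.19 (SE, adjusted p = 0.996 in edgeR's test). Lactobacillus sp. L-YJ was the leading variant, with a mean of 4.55% ± 3.33 (SD, n = 6) and 1.39% ± 1.25 (SD, n = 5), and it was counted in every library. A variant named L. intestinalis reached 13.7% in LD0/24 replicate 6 and 3.31% at most in any other sample.

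Unclassified Muribaculaceae were at nearly equal means of 15.3% ± 9.83 (SD, n = 6) in LD0/24, against 14.9% ± 9.62 (SD, n = 5) in LD24/0. The lowest, median and highest values were 3.28%, 18.3% and 26.9% in LD0/24 and 6.23%, 12.3% and 30.9% in LD24/0. The log2 fold change was -0.04 ± 0.69 (SE), with an approximate 95% interval from -1.39 to 1.30.

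The Lachnospiraceae NK4A136 group, Clostridia often counted among the butyrate producers, spread more widely in constant light (SD 19.4, n = 5) than in constant darkness (SD 3.96, n = 6). Its shares were 5.51%, 3.74%, 4.11%, 11.7%, 9.91% and 1.36% in LD0/24 and 8.71%, 20.4%, 50.4%, 4.57%, 4.49% and 4.21% in LD24/0. Replicates 2 and 3 of LD24/0 were above every LD0/24 value, and the rest lay inside the LD0/24 range. The log2 fold change was 1.55 ± 0.83 (SE, adjusted p = 0.26 in edgeR's test). Without LD24/0 replicate 3 the LD24/0 mean dropped from 17.7% to 9.50%. A single variant accounted for 16.0% of the reads of LD24/0 replicate 3 and for at most 1.87% in another sample.

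Desulfovibrio was high in LD0/24 replicates 1 and 5, at 11.9% and 12.3%, and between 1.18% and 1.77% in the other 4 mice of that group. In LD24/0 it lay between 2.41% and 4.93%, in the gap between the high and low LD0/24 mice. The LD0/24 mean was 5.03% ± 5.48 (SD, n = 6) and the LD24/0 mean 3.63% ± 1.06 (SD, n = 5). The same 2 LD0/24 mice also held the most unclassified Clostridiales, 5.54% and 8.17%, against at most 1.13% in the other 4. Unclassified Clostridia UCG-014 ranged from 0.046% to 11.4% in LD0/24 and from 0.815% to 1.68% in LD24/0. These 3 genera had log2 fold changes of -0.47 ± 0.75, -0.43 ± 0.85 and -1.32 ± 0.79 (SE), and none passed the test (adjusted p of 0.955, 0.995 and 0.348 in edgeR's test).

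**Figure D3:**
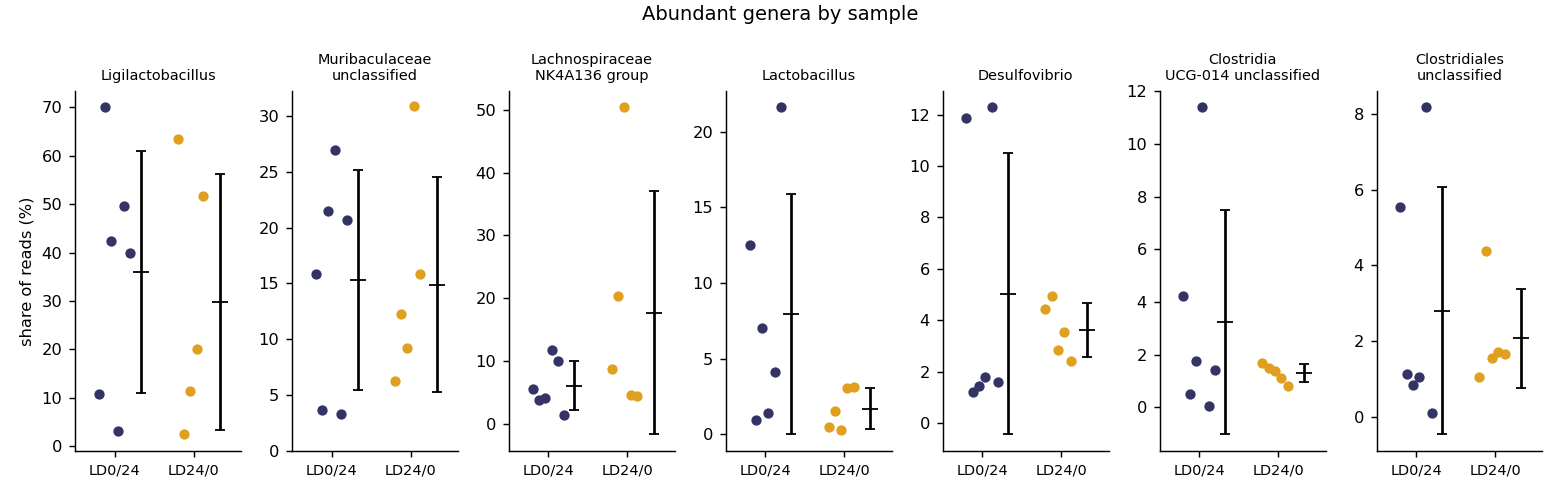
Share of reads (%) by sample for the 7 abundant genera, one panel each with its own axis. Points are samples, with LD24/0 replicates 5 and 6 averaged into 1 point, and bars show the mean ± SD (n = 6 and 5). The groups overlap in all 7 panels.

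The groups overlapped for every genus tested: of the 221 genera, 0 (0.0%) had all LD0/24 samples on one side of all LD24/0 samples.

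Few variants were shared by all mice. In the 11 samples 3721 variants were counted, of which 45 occurred in all 11 samples and 2505 in 1 sample only. The 45 shared variants took between 24.8% and 80.2% of the reads of a sample, with a median of 68.7%. Of the 54 variants that reached 1% of reads somewhere, 34 did so in 1 sample only, 17 of them in an LD0/24 and 17 in an LD24/0 sample. The genera differed in this respect. Ligilactobacillus consisted of 2 variants that together made up at least 98.7% of its reads in every library, in a ratio between 4.42 and 5.02 whatever the level of the genus. Muribaculaceae were spread over 817 variants, of which 13 occurred in all 11 samples, and the NK4A136 group over 339, of which 0 did.

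Genera were also grouped by taxon, by habitat or source, or by what they do, and the threshold was passed by 0 members in 10 of the 12 groups. Over all genera 7.69% passed, so 0 calls in a group of a few genera says little about that group. Of 33 tested Clostridia that produce short-chain fatty acids, 0 passed in either direction, with a median log2 fold change of 0.42 beside -0.09 over all genera tested. Summed, they took 9.89% ± 6.46 (SD, n = 6) of LD0/24 reads and 22.7% ± 20.8 (SD, n = 5) of LD24/0 reads, the latter with 55.2% in replicate 3 and 32.0% in replicate 2. Intestinimonas, a butyrate producer, was at 0.157% ± 0.132 and 0.526% ± 0.465 (adjusted p = 0.26 in edgeR's test). Of 13 tested Bacteroidales 0 passed, with a median of 0.08 and summed shares of 18.6% ± 11.3 and 18.0% ± 10.3. Of 12 lactic acid bacteria and bifidobacteria 0 passed, with a median of -0.30 and summed shares of 46.6% ± 24.6 and 33.9% ± 26.2. Bifidobacterium, which ferments oligosaccharides, was at 1.22% in LD0/24 replicate 4, 0.305% in replicate 3, at most 0.0295% in the other LD0/24 mice and at most 0.0926% in LD24/0.

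Akkermansia was at 0.0115% to 0.29% in LD0/24. In LD24/0 it was at 6.53% in replicate 2, 1.93% in replicate 4 and at most 0.0844% in the other libraries. Its log2 fold change was 4.25 ± 1.57 (SE, adjusted p = 0.101 in edgeR's test), and without replicate 2 the LD24/0 mean dropped from 1.71% to 0.508%. Of the 3 genera of mucin degraders and the mucus layer 0 passed, as did 0 of 3 sulfate reducers. Turicibacter, an Erysipelotrichales genus of the intestine, overlapped between the groups, with 0.0115% to 3.64% in LD0/24 and 0.0687% to 3.62% in LD24/0 samples, and 0 of the 6 Erysipelotrichales tested passed. Candidatus Arthromitus, the segmented filamentous bacteria that attach to the intestinal epithelium, was at 1.05% and 0.896% in the near-identical LD24/0 replicates 5 and 6, at 0.351% in replicate 4, at 0.0975% in replicate 1 and at 0 in replicates 2 and 3. In LD0/24 it lay between 0.0202% and 0.24%. In the remaining groups without a call, 0 of 6 Enterobacterales, 0 of 3 enterococci and staphylococci, 0 of 4 Eggerthellaceae and 0 of 3 reduced-genome and host-dependent genera passed.

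Across all genera, 17 of 221 (7.69%) passed the threshold, and all 17 were lower in LD24/0. None was higher, where 13 genera had a positive change with an unadjusted p under 0.05, DESeq2 called 2 higher and limma on centred log-ratios called 1. With LD24/0 replicates 5 and 6 as 2 samples, 18 of 222 passed, among them the same 17. The 17 were not the abundant gut genera. Most are known from the mouth and airways, and each made up less than 1% of each of the 12 libraries. Of the 17, 13 met the count filter only through the colon chow libraries with 8, 12 or 16 h of light, which lie outside the contrast.

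The reads of 15 of the 17 came almost wholly from LD0/24 replicates 5 and 6. Both libraries held more of each of the 15 than any other of the 12 libraries did, and 10 of the 15 were counted in these 2 libraries alone. Summed, the 15 genera made up 1.18% and 1.11% of reads there, at most 0.0491% in the other 10 libraries and 0 in LD24/0 replicates 1, 2 and 5. In the 18 colon chow libraries with 8, 12 or 16 h of light, the same 15 genera made up between 0.758% and 1.39%. The shares of these 2 LD0/24 libraries lay inside that range, and those of the other 4 LD0/24 libraries lay below it.

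**Figure D4:**
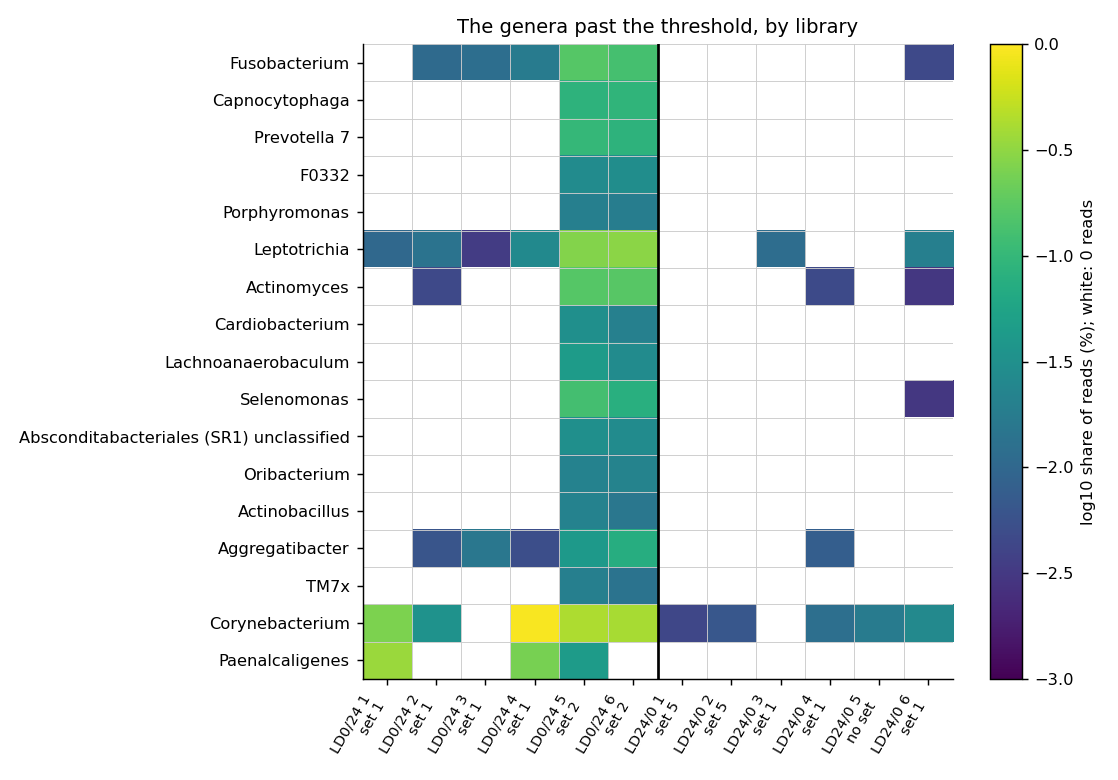
Share of reads (log10 of %) of the 17 genera that passed the threshold, in each of the 12 libraries, with the set of libraries under each name and white cells for 0 reads. The colour is concentrated in LD0/24 replicates 5 and 6, except for Corynebacterium and Paenalcaligenes.

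Fusobacterium, an anaerobe of dental plaque, had the smallest p of all genera. It was at 0, 0.0109%, 0.0121%, 0.0175%, 0.163% and 0.13% in LD0/24 replicates 1 to 6, and in LD24/0 it was counted only in replicate 6, at 0.0046%. Its log2 fold change was -5.99 ± 1.17 (SE, adjusted p = 0.00411 in edgeR's test) and -3.54 with an adjusted p of 0.049 without LD0/24 replicates 5 and 6. Leptotrichia, another oral anaerobe, was at 0.28% and 0.305% in these 2 libraries, between 0.00344% and 0.0263% in the other 4 and at most 0.0199% in LD24/0. Its log2 fold change of -4.38 ± 1.13 (SE, adjusted p = 0.0173 in edgeR's test) became -1.42 without the 2 libraries (adjusted p = 0.574 in edgeR's test). Actinomyces, an early coloniser of teeth, was at 0.161% and 0.167% in the 2 libraries and at most 0.00472% in the other 10. Its log2 fold change of -5.17 ± 1.39 (SE, adjusted p = 0.023 in edgeR's test) turned to 0.14 without them.

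Capnocytophaga, a gliding oral bacterium, was at 0.0872% and 0.0922% in LD0/24 replicates 5 and 6 and at 0 in the other 10 libraries. Counted over the whole groups, with 3 counts in LD24/0 as the floor for 0, it was at least 37.0-fold lower in LD24/0 (adjusted p = 0.00925 in edgeR's test). A count of 0 over the pooled reads of the LD24/0 libraries allows a share of up to 0.000836%. This limit, and every fold bound on the floor of 3 counts, covers counting error only and not the spread between libraries. Porphyromonas, which includes species of the gum pocket, was at 0.0197% and 0.0187% in the same 2 libraries and at least 7.93-fold lower on the same floor (adjusted p = 0.0173 in edgeR's test). The other 10 genera of the 15 fall outside the rule for naming and are given after their values were seen. They were Prevotella 7, F0332, Cardiobacterium, Lachnoanaerobaculum, Selenomonas, unclassified Absconditabacteriales (SR1), Oribacterium, Actinobacillus, Aggregatibacter and TM7x.

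Corynebacterium and Paenalcaligenes were spread differently over the LD0/24 mice. Corynebacterium, a genus of skin and mucosal surfaces, was at 0.253%, 0.0341%, 0, 0.944%, 0.428% and 0.405% in LD0/24 and between 0 and 0.0261% in LD24/0. In 5 of 6 LD0/24 mice it was above every LD24/0 library. The log2 fold change was -5.16 ± 1.11 (SE, adjusted p = 0.00769 in edgeR's test), and without LD0/24 replicates 5 and 6 it was -5.00 (adjusted p = 0.042 in edgeR's test). Only Corynebacterium and Fusobacterium of the 17 kept an adjusted p under 0.05 without those 2 libraries. In the set of libraries shared by both groups its log2 fold change was -4.55, with an adjusted p of 0.996. In the colon chow libraries with 8, 12 and 16 h of light its means were 0.401%, 0.201% and 0.548%. Paenalcaligenes was at 0.355%, 0.242% and 0.0444% in LD0/24 replicates 1, 4 and 5 and at 0 in the other 9 libraries, at least 122-fold lower in LD24/0 on the floor of 3 counts (adjusted p = 0.0313 in edgeR's test).

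The sets of libraries moved with these calls. Within the set that both groups share, LD0/24 replicates 1 to 4 against LD24/0 replicates 3, 4 and 6, 0 of 149 genera passed in edgeR's test, and 6 had an unadjusted p under 0.05. Of the 17 genera, 13 had too few counts in these libraries to be tested there. The 4 that were tested had log2 fold changes of -4.55 (Corynebacterium), -2.55 (Fusobacterium), -1.29 (Aggregatibacter) and -0.35 (Leptotrichia). When the set entered as a block, 0 of 221 passed and 16 had an unadjusted p under 0.05. The sets were drawn in part from variants of Fusobacterium, Leptotrichia, Actinomyces, Capnocytophaga and Porphyromonas, so the block takes up their differences by construction. Of the 12 oral and airway genera, 5 passed as lower in LD24/0 and 7 did not, beside 7.69% of all genera. Variants of all 12 were among those that drew the sets, so steps in their share from set to set follow in part by construction. Their summed share was 0.248% to 0.307% in LD0/24 replicates 1 to 4 and 2.02% and 1.78% in replicates 5 and 6. In LD24/0 it was 0.22%, 0.225% and 0.313% in replicates 3, 4 and 6, and 0 in replicates 1, 2 and 5. Their median log2 fold change was -2.97, and -2.68 with genera at 0 set to their bound, beside -0.09 over all genera. Of the 10 tested reagent and environmental genera with plastids, 1 passed, Corynebacterium, a share near the 7.69% of all genera, with summed shares of 1.56% ± 0.939 (SD, n = 6) and 1.01% ± 0.612 (SD, n = 5). When only the LD0/24 and LD24/0 samples entered the fit, 0 of 139 genera passed in edgeR's test and 11 had an unadjusted p under 0.05. That fit also tested only 4 of the 17 genera, and their log2 fold changes stayed close to those of the larger fit, at -6.01 for Fusobacterium, -5.17 for Corynebacterium, -4.39 for Leptotrichia and -3.80 for Aggregatibacter, with larger standard errors.

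At the level of families, 10 of 92 (10.9%) passed, all 10 of them lower in LD24/0. DESeq2 also called 1 family higher, Akkermansiaceae (adjusted p = 0.0208). The 10 families of edgeR's test were Fusobacteriaceae, Corynebacteriaceae, Flavobacteriaceae, Leptotrichiaceae, Actinomycetaceae, Cardiobacteriaceae, Selenomonadaceae, Alcaligenaceae, unclassified Absconditabacteriales (SR1) and Micrococcaceae. Micrococcaceae, here mostly Rothia, an oral genus that did not pass by itself (adjusted p = 0.102 in edgeR's test), were counted in all 6 LD0/24 samples at 0.0121% to 0.0719% and in LD24/0 at 0 to 0.0291% (log2 fold change -2.43 ± 0.78 SE, adjusted p = 0.0389 in edgeR's test). Of the families with a mean of at least 2%, 0 passed. Lactobacillaceae were at 46.2% ± 24.9 (SD, n = 6) and 33.8% ± 26.2 (SD, n = 5), and Lachnospiraceae at 9.48% ± 5.93 and 22.2% ± 20.6. Desulfovibrionaceae were at 5.63% ± 5.30 and 5.55% ± 3.25, and Ruminococcaceae, which include cellulose degraders, at 1.37% ± 1.42 and 2.23% ± 1.80. Within the shared set of libraries and with the set as a block, 0 families passed in edgeR's test, with 2 and 9 at an unadjusted p under 0.05. The shared set left 5 of the 10 families with enough counts to be tested, and Corynebacteriaceae and Alcaligenaceae had log2 fold changes of -4.55 ± 2.36 and -4.40 ± 2.47 (SE) there. Of the phyla, which were not tested, Firmicutes were at 69.6% ± 11.4 and 70.6% ± 12.1 and Bacteroidota at 18.6% ± 11.3 and 18.0% ± 10.3.

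Of the 1044 sequence variants tested, 0 (0.0%) passed in edgeR's test. A total of 216 had an unadjusted p under 0.05, and DESeq2 called 34, of which 12 were higher in LD24/0. In the variant-rich genera the variants leaned both ways. Of 201 tested Muribaculaceae variants, 84 had a positive and 117 a negative log2 fold change, and of 52 NK4A136 group variants 35 were positive and 17 negative. In some smaller genera all tested variants were negative, 5 of 5 in Corynebacterium, 4 of 4 in Capnocytophaga and 5 of 5 in Lactobacillus. Ligilactobacillus had 2 positive and 2 negative, and Leptotrichia 1 positive and 7 negative. Corynebacterium and Capnocytophaga had been called lower as genera, so the signs of their variants add no separate support. Of the Lactobacillus variants, 2 had an unadjusted p under 0.05. The 2 leading Ligilactobacillus variants had nearly the same log2 fold change, -0.28 ± 0.83 and -0.28 ± 0.94 (SE). The leading Desulfovibrio variant was at -0.91 ± 0.94 and the leading Muribaculaceae variant at 0.59 ± 1.11 (SE).

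Whether the contrast between constant light and constant darkness differed by site was tested against the cecum of chow-fed mice, and 22 of 272 genera (8.09%) passed. For each of the 6 genera named by rule, at least 1 of the cecal groups was at 0 in every library. No cecal chow library reached the 1% of low-level variants needed to enter a set. Variants of Neisseria, Haemophilus and Lactiplantibacillus were among these low-level variants. Whether this difference between the sites bears on the calls was not tested. Neisseria and Haemophilus, bacteria of the throat, had colonic means of 0.201% ± 0.185 and 0.229% ± 0.18 (SD, n = 6) in LD0/24, against 0.0372% ± 0.0346 and 0.0554% ± 0.0538 (SD, n = 5) in LD24/0. The LD0/24 means rest on replicates 5 and 6, which held 0.488% and 0.381% Neisseria, against 0.0684% to 0.102% in the other 4. In the set of libraries shared by both groups the means were nearly level, at 0.0837% and 0.0792% for Neisseria and 0.113% in both groups for Haemophilus. The sets were drawn in part from variants of both genera, so level means inside a set follow in part by construction. In the cecum both were at 0 in LD0/24 and had means of 0.0268% and 0.0113% in LD24/0 (adjusted p of 0.00122 and 0.00266 in edgeR's interaction test). Lactiplantibacillus, a genus of fermented plants, was at 0.616% and 0.799% in the colon and at 0.0039% and 0 in the cecum (adjusted p = 0.0437 in edgeR's interaction test). Of the abundant genera above, 0 were among the 22.

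Against the colon of antibiotic-treated mice, 7 of 258 genera (2.71%) passed. Enterococcus, which tolerates many antibiotics, gave the smallest p. On chow it was at 0.186% ± 0.108 (SD, n = 6) in LD0/24, against 0.0773% ± 0.051 (SD, n = 5) in LD24/0, and with antibiotics at 0.246% ± 0.0967 (SD, n = 6) in LD0/24, against 22.5% ± 13.3 (SD, n = 6) in LD24/0 (adjusted p = 0.00125 in edgeR's interaction test). Corynebacterium differed too, with 0.344% and 0.00907% on chow and 0.000604% and 0.0032% with antibiotics (adjusted p = 0.00691 in edgeR's interaction test). Both interactions share the 12 libraries of the main contrast.

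Differences in diversity and overall composition were within the spread between samples. The Shannon index, which rises with the number of variants and their evenness, was 4.74, 2.48, 3.79, 5.71, 2.76 and 3.12 in LD0/24 and 2.65, 5.35, 4.53, 4.72, 3.09 and 3.54 in LD24/0. The groups overlapped over most of this range. The means were 3.77 ± 1.25 (SD, n = 6) and 4.11 ± 1.10 (SD, n = 5), a difference of 0.347 (two-sided exact permutation test over 462 splits, p = 0.636, with 0.00216 as the smallest p possible). At a common depth of 39157 counts the expected number of variants was 638 ± 295 and 683 ± 231 (two-sided exact permutation test, n = 6 and 5, p = 0.781). The near-identical LD24/0 replicates 5 and 6 gave 363 and 579 variants at that depth. Of the variation in Bray-Curtis distances, 8.46% lay between the light cycles (exact permutation test, p = 0.558). The median distance was 0.63 within LD0/24, 0.70 within LD24/0 and 0.662 between the groups. The smallest distance between samples other than the pair was 0.244, between an LD0/24 and an LD24/0 mouse.

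**Figure D5:**
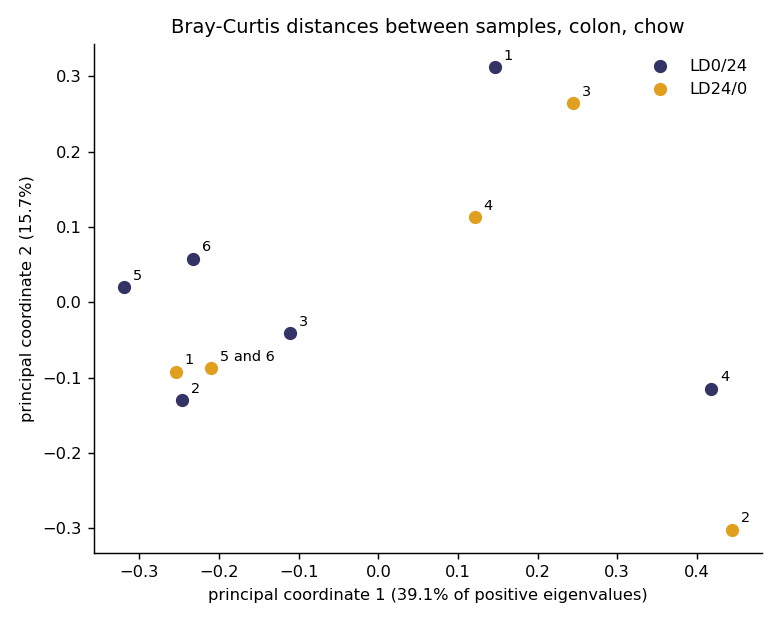
Principal coordinates of Bray-Curtis distances between samples, computed over variants, with the share of positive eigenvalues on each axis and the replicate number beside each sample. LD24/0 replicates 5 and 6 are 1 point, and both groups spread along the first axis.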

How the data were processed

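Colonic 16S amplicons were sequenced from SMRTbell libraries after extraction with a stool DNA kit, per the labels' protocols. The authors deposited counts per amplicon sequence variant for 120 samples and 13844 variants with a taxonomy. Which primers, denoiser and taxonomy database were used is not stated in the labels or files used here. Counts were summed by genus and family, and shares are percent of a library's counts. Between 0.00613% and 0.309% of the counts of a library carried no taxon name.

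Counts were tested with edgeR 4.0.16 (R 4.3.3; quasi-likelihood, total count as library size, at least 3 counts in at least 5 samples) over all colon chow libraries of the 5 light cycles, with Benjamini-Hochberg adjustment and a threshold of 0.05. Interactions used both sites or both diets. A standard error is the absolute log2 fold change divided by the square root of F. Diversity was tested by exact permutation in Python 3.11.15 with numpy 2.4.6. DESeq2 1.42.0 and limma 3.58.1 were alternatives. Counting LD24/0 replicates 5 and 6 as 1 sample departs from the planned 6 against 6.

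Tested on simulated data over the 221 genera, the genus comparison recovered 3.0% of 4-fold and 17.5% of 8-fold changes and called 0.221% of unchanged genera. In the simulation each genus varied independently and there were no sets of libraries. The rate for unchanged genera therefore does not cover genera that rise together in a few libraries. Named were called genera averaging 0.1% or more in either group, up to 10 per direction, called members of the lists, genera and families with a mean of at least 2%, called families, and up to 6 genera per interaction with a mean of at least 0.1%. The comparison, lists and rules were chosen with earlier results of these data known. Replicate numbers carry no stated pairing.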

Additional observations from a re-analysis of the deposited data

Results flagged for a closer look

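In 4 of 42 groups of samples examined, 1 sample stood far from the rest, where chance gives about 1 in 20. That rate is only a rough guide for skewed shares with values at 0. Unclassified Clostridia UCG-014 was at 11.4% in LD0/24 replicate 4, against a mean of 1.59% in the other 5 samples. In LD24/0 replicate 2, unclassified Clostridiales were at 4.37% against a mean of 1.50% in the others, and Desulfovibrionaceae were at 11.2% against 4.12%. Fusobacterium was at 0.0023% in the sample formed by LD24/0 replicates 5 and 6 and at 0 in the other 4, so any read would set that sample apart.

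In edgeR's interaction test, the difference between light cycles differed between colon and cecum for 22 of 272 genera (8.09%). Only the 6 genera named by rule are given here. The adjusted p was 0.00122 for Neisseria, 0.0024 for Lysinibacillus, 0.00266 for Haemophilus, 0.0132 for the Lachnospiraceae NK4B4 group, 0.0227 for Pantoea and 0.0437 for Lactiplantibacillus. Lysinibacillus was at 0.141% and 0.119% in the LD0/24 and LD24/0 colon, and at 0 and 0.0298% in the cecum. Pantoea was at 0.17% and 0.177% in the colon, and at 0.0109% and 0 in the cecum. The NK4B4 group was at 0 and 0.00837% in the colon, and at 0.11% and 0 in the cecum.

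The difference between light cycles differed between chow and antibiotics in the colon for 7 of 258 genera (2.71%). Of these, only the 3 named by rule are given. The adjusted p in edgeR's interaction test was 0.00125 for Enterococcus, 0.00691 for Corynebacterium and 0.0365 for Negativibacillus. Negativibacillus was at 0.0573% and 0.149% on chow, and at 0.00546% and 0 with antibiotics.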

How the results depend on the processing

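The 17 called genera became 32 with DESeq2, 9 without a filter, 7 with limma, 2 with the replicate block, 2 without LD0/24 replicates 5 and 6, and 0 with only the LD0/24 and LD24/0 samples, with the set as a block or within the shared set. The 2-group and shared-set fits could test only 4 of the 17 genera, and Corynebacterium kept log2 fold changes of -5.17 and -4.55 there. Called genera numbered 6 to 19 when a sample was left out: 6 without LD0/24 replicate 5, and 7, 6, 8, 11 and 8 without LD24/0 replicate 1, 2, 3, 4, or 5 and 6 together. TMMwsp factors gave 17, a stricter filter 19 and removal of the background variants 12. The 10 called families became 19 with DESeq2, 14 with TMMwsp factors, 4 with the replicate block, 3 without LD0/24 replicates 5 and 6, and 0 with only the 2 groups, the set block or the shared set, where 5 of the 10 were tested in the first and the last. They numbered 9 to 15 when a sample was left out. Higher in LD24/0 were Akkermansiaceae with DESeq2 and without LD24/0 replicate 3, and Eubacteriaceae (adjusted p of 0.0336 to 0.039 in edgeR's test) without LD24/0 replicate 1, 3, 6, or 5 and 6. Eubacteriaceae rested on LD24/0 replicate 4, at 1.30%, against at most 0.0618% in the other LD24/0 libraries. Called variants rose from 0 to 34 with DESeq2. The 22 genera of the cecum interaction became 11 with only LD0/24 and LD24/0 samples and 15 with the replicate block, and the 7 of the antibiotics interaction became 2 and 4.

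With the set as a block and without LD0/24 replicates 5 and 6, respectively, log2 fold changes turned to 0.78 and 0.14 for Actinomyces, 2.25 and 1.74 for Selenomonas, 0.77 and 0.14 for Actinomycetaceae, and 2.28 and 1.78 for Selenomonadaceae. With LD24/0 replicates 5 and 6 as 2 samples, the Shannon difference was 0.214 (exact permutation test, p = 0.764), and 18 genera, 10 families and 0 variants were called. Merging that pair, the shared set, the omission of LD0/24 replicates 5 and 6, and the set block for families and variants were chosen after seeing the data. Same-numbered LD0/24 and LD24/0 samples had correlations of -0.15 to 0.0468, inside the range of -0.254 to 0.323 of the differently numbered ones. These values show no pairing by number, but they cannot exclude one. The causes were not tested.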

Other observations

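The cecal chow library nearest in composition to each of the 12 colonic libraries carried the same light cycle and replicate number in 1 of 12 cases, LD24/0 replicate 4, at a Bray-Curtis distance of 0.241.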
